A study of Mus musculus with 6 samples.

Results

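AP-1 is a family of leucine-zipper transcription factors that bind DNA as dimers of FOS, JUN and ATF proteins. FOS proteins need a JUN partner, whereas JUN proteins can also pair among themselves, and the classical dimers bind the TPA-response element (TRE). Many of the genes are immediate early genes, transcribed within minutes of ERK or JNK signalling without new protein synthesis, and the glucocorticoid receptor is known to repress AP-1 activity. In the pancreas, AP-1 activity rises with tissue injury and with the loss of acinar identity. The 8 genes described here are Fos, Fosb, Fosl1 and Fosl2 of the FOS family, Jun, Junb and Jund of the JUN family, and Atf3. They were taken by symbol from the 56953 genes of the deposited count table, and each symbol matched 1 gene.

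The data come from 6 bulk RNA-seq libraries of primary mouse pancreatic acini at day 3 of an ex vivo assay of acinar-to-ductal metaplasia (ADM), the conversion of enzyme-secreting acini into duct-like structures. The study's title places Fos downstream of MEK, the kinase that activates ERK, in acini lacking the secreted glycoprotein DKK3, and the comparisons below bear on the transcripts of Fos and its relatives. WT acini were wild type and untreated (labelled 10 and 11 weeks of age), DD acini were Dkk3-null and untreated (12 and 13 weeks), and DD + rDKK3 acini were Dkk3-null and received recombinant DKK3 (14 and 15 weeks), with n = 2 libraries per group. Age and group cannot be told apart, and since the labelled ages rise by 1 week from each library to the next across all groups, they may not be measured ages. WT 2 was labelled female and the other libraries male. All groups, WT included, were embedded in Matrigel and kept in Waymouth medium with 10% FBS, 0.1 mg/ml trypsin inhibitor and 10 µg/ml dexamethasone, a glucocorticoid. The null allele was present in all cells and removed exon 2 of Dkk3, so a gene-level count does not check it, and Dkk3 had 1 to 11 counts per library. The labels give each library its own age but name no animals, and they do not say whether DD and DD + rDKK3 cultures of the same number came from the same mouse. The p-values set differences against the spread between these libraries, which the main fit took as independent.

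Library totals ran from 12018473 to 19750401 counts, and 14738 genes, 7 of the 8 AP-1 members among them, passed the filter on low counts. The acinar label held, with all 10 acinar markers tested and their summed level between 86797 (DD 2) and 144746 CPM (WT 1), the count normalised to library depth. By fitted log2 fold change, 7 of the 10 were lower in DD than in WT, beside 7124 of all 14738 genes. All 10 were higher in DD + rDKK3 than in DD, beside 7301 of all genes. Without DD 2 the counts of acinar markers were 6 and 7. A group of libraries stood apart by markers of other cells. The 10 fibroblast and stellate markers summed to 753 CPM in DD 2 and 849 in DD + rDKK3 2, against 41 to 151 CPM in the other 4 libraries, and the 7 macrophage markers to 218 and 170 against 56.4 to 102 CPM. The first principal component, with 42.3% of the variance, separated the same 2 libraries, and the second, with 32.3%, set WT 1 apart. No listed marker was at 0 in every library. Summed levels were 1025 to 1470 CPM for 8 ductal, 80 to 133 CPM for 7 endothelial, 91.4 to 181 CPM for 6 islet and 2802 to 3903 CPM for 7 cytosolic heat shock genes. In bulk RNA, fewer cells of a type and less RNA per cell cannot be told apart.

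Promoter sequences of Fos, Jun and Atf3 are shown, an inducible gene of each of the 3 families, to give the letters that signalling factors could meet near the start site. RefSeq windows were given for 7 of the 8 members, and Fosl1 was the exception. The windows run from 250 bases before to 50 bases after a start site. The table's build is GRCm38.p6, and each window was found exactly once on its chromosome in GRCm39, whose coordinates are used. The 250 bases before the start are printed 5′ to 3′ on the gene's strand, with motif matches in capitals. Fos lies on the plus strand (chr12:85520414-85520663), and Jun (chr4:94940460-94940709) and Atf3 (chr1:190915531-190915780) on the minus strand.
Fos: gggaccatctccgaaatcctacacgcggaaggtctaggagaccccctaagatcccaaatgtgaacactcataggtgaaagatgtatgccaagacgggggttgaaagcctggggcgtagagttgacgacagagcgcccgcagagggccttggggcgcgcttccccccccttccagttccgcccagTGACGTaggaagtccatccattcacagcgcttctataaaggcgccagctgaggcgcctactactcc
Jun: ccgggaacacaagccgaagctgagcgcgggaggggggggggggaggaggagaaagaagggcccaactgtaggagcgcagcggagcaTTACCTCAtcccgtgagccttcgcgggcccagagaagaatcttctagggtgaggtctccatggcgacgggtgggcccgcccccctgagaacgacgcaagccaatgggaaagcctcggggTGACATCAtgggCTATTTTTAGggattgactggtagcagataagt
Atf3: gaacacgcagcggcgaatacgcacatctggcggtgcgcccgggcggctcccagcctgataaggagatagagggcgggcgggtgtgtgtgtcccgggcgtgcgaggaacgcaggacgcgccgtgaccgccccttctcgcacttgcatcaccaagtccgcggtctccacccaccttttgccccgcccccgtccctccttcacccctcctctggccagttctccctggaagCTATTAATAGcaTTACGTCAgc
In Fos the capitals mark TGACGT, the core of the cAMP-response element (CRE), at bases -66 to -61 from the start. In Jun they mark TTACCTCA at -164 to -157 and TGACATCA at -45 to -38, both AP-1-like, and a MEF2 motif at -33 to -24. In Atf3 they mark a MEF2 motif at -22 to -13 and TTACGTCA at -10 to -3, whose last 6 bases are also the CRE core on the opposite strand. The MEF2 motif searched was CTA, 4 bases of A or T, and TAG. Both strands were searched, and the TRE (TGACTCA or TGAGTCA) and the CArG box bound by SRF (CC, 6 bases of A or T, GG) had no match in the 7 windows. Sequence beyond the windows was not searched, so the lack of a match does not show that a gene has no such site further upstream. Of all 32851 windows of 300 bases, 7.51% held TGACGT, 3.62% TGACATCA, 0.889% TTACCTCA, 0.499% TTACGTCA, 0.557% the MEF2 motif, 5.2% the TRE and 1.63% the CArG box. The Atf3 window belongs to a start site inside the annotated span of the gene, as does that of Fosl2. The Jund window ends at base 71150438, upstream of the annotated gene, which begins at base 71151599, so it does not cover that start. A match describes letters and is not a measured site.

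Loss of DKK3 was compared first. In DD against WT acini, Fos was 2.09 ± 0.613 higher on the log2 scale (SE), Fosl1 was 0.90 ± 0.284 higher and Atf3 was 0.83 lower, while Fosl2, Jun, Junb and Jund had differences between -0.31 and 0.54. None of the 7 members tested passed edgeR's quasi-likelihood test at an adjusted p under 0.05, a threshold that 0.0407% of all genes passed. DESeq2 and limma-voom called 0 of 7 as well, against 0.522% and 0.0543% of all genes, and the edgeR fit without the low-count filter called 2 of 8 (Fos and Atf3), against 1.99%. At an unadjusted p under 0.05, 3 of 7 members stood out, against 8.26% of all genes, with 2 higher (Fos and Fosl1) against 4.27% and 1 lower (Atf3) against 3.99%. The groups did not overlap for the same 3 of 7 members, against 37.8% of all genes (18.1% higher and 19.7% lower). The median log2 fold change of the 7 members was 0.19, beside 0.016 over all genes tested.

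Fos (ENSMUSG00000021250.14, chromosome 12, 85520664 to 85524047, plus strand) encodes the founding FOS protein, a short-lived partner of the JUN proteins. The WT libraries held 82 and 537 Fos counts, the DD libraries 1666 and 2011, and the DD + rDKK3 libraries 1049 and 1822. In depth-normalised units these were 8.05 and 37.7 CPM in WT, 78.8 and 118 in DD and 55.4 and 97.9 with rDKK3. Both WT libraries lay below all 4 Dkk3-null libraries, and WT 1 lay 4.68-fold below WT 2. The spread between WT libraries was far larger than their counting error, with exact 95% Poisson intervals of 6.4 to 9.99 CPM in WT 1 and 34.6 to 41 CPM in WT 2. The log2 fold change of DD against WT was 2.09 with a 95% interval of 0.66 to 3.51 (edgeR quasi-likelihood test, Benjamini-Hochberg adjusted p = 0.586). It was 1.40 without WT 1 and 3.62 without WT 2, with adjusted p of 0.952 and 0.178 in the same edgeR test. The only fit that called Fos was the one without the low-count filter, whose log2 fold change was 2.13 (edgeR adjusted p = 5.35e-23) and which estimated no gene-to-gene variation in the spread. Without both number-2 libraries of the Dkk3-null groups, which held most of the fibroblast transcripts, Fos was 1.77 higher in DD, a value with no replicate check because 1 DD library was left.

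**Figure D1:**
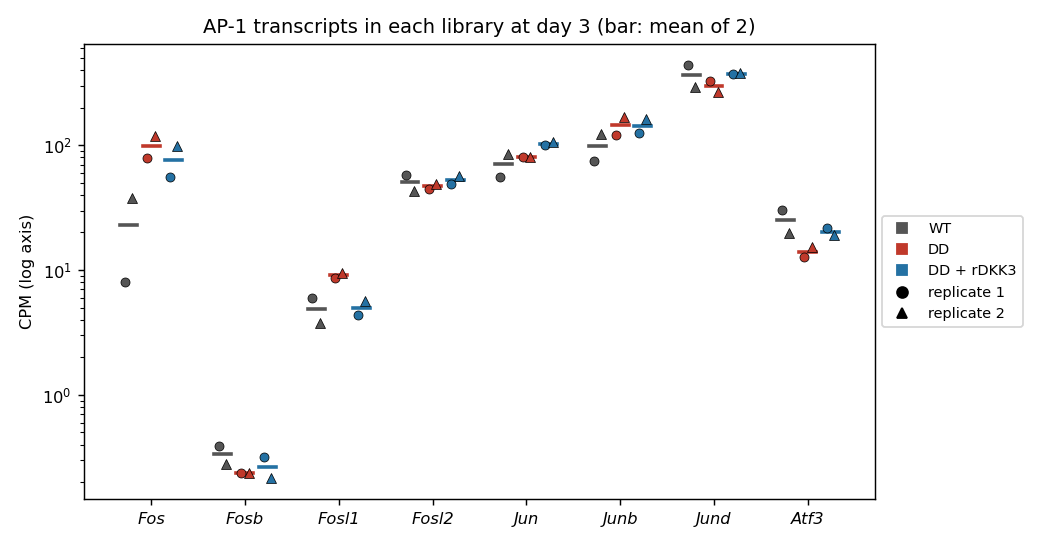
CPM of the 8 AP-1 genes on a log axis, with a point per library (circle for replicate 1, triangle for replicate 2) and a bar at the mean of each group of 2. Fos sits at 8.05 and 37.7 CPM in WT and at 55.4 to 118 CPM in the Dkk3-null libraries, while Fosb stays under 0.4 CPM throughout.

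Fosl1 (ENSMUSG00000024912.7, chromosome 19, 5497575 to 5505974, plus strand) encodes FRA1, a FOS protein that ERK signalling stabilises and that is linked with epithelial plasticity. It had 5.99 and 3.79 CPM in WT, 8.65 and 9.45 in DD and 4.33 and 5.64 with rDKK3, from 54 to 183 counts per library. Both DD libraries lay above the other 4, and the WT and DD + rDKK3 libraries overlapped. The log2 fold change of DD against WT was 0.90 with a 95% interval of 0.24 to 1.56 (edgeR adjusted p = 0.586). It ranged from 0.60 to 1.27 when single libraries were left out. Fosl1 shares its locus with Ccdc85b on the opposite strand, which had 274 to 502 counts per library, and the counts were made by strand.

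Fosl2 (ENSMUSG00000029135.11, chromosome 5, 32293145 to 32315186, plus strand) encodes FRA2, the more stably expressed FOS-related protein. It had 58 and 42.7 CPM in WT, 44.8 and 48.7 in DD and 49.2 and 56.7 with rDKK3. The WT libraries spanned all the others, so no group stood apart. Its log2 fold change of DD against WT was -0.11 (95% interval -0.53 to 0.32). Fosb (ENSMUSG00000003545.4, chromosome 7, 19036621 to 19043976, minus strand), an inducible FOS gene, had 4 to 6 counts in every library, or 0.215 to 0.393 CPM, and did not pass the filter. These values lie close to the limit that 3 counts set (0.142 to 0.294 CPM), and a difference was not detectable at this depth. In a fit without the filter its log2 fold change of DD against WT was -0.43 ± 0.914 (SE).

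Jun (ENSMUSG00000052684.5, chromosome 4, 94937271 to 94940459, minus strand) encodes c-JUN, the partner that JNK phosphorylates. It had 55.7 and 85.8 CPM in WT, 80.5 and 80.9 in DD and 100.6 and 105.9 with rDKK3. WT 1 was the lowest library, WT 2 lay above both DD libraries, and both DD + rDKK3 libraries lay above the other 4. The log2 fold change of DD against WT was 0.19 (95% interval -0.30 to 0.68), and its sign depended on WT 1, since it was -0.073 without that library. Junos, a non-coding gene on the opposite strand, had between 1.73% and 4.58% of the Jun counts.

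Junb (ENSMUSG00000052837.8, chromosome 8, 85701113 to 85705347, minus strand) encodes a JUN protein that can restrain c-JUN. It had 75.4 and 122 CPM in WT, 121 and 168 in DD and 125 and 162 with rDKK3. WT 1 was again the lowest, and WT 2 lay just above DD 1, so WT and DD overlapped. The log2 fold change of DD against WT was 0.54 ± 0.276 (SE; edgeR adjusted p = 0.586), and it ranged from 0.25 to 0.94 when single libraries were left out. Prdx2 overlaps Junb on the opposite strand and had 3903 to 5255 counts per library, between 129.8% and 527.5% of the Junb counts.

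Jund (ENSMUSG00000071076.9, chromosome 8, 71151599 to 71153265, plus strand) encodes the JUN protein that is made constitutively in many cells. It had 442 and 292 CPM in WT, 326 and 268 in DD and 369 and 381 with rDKK3. The 2 WT libraries spanned DD 1 and both DD + rDKK3 libraries, and DD 2 was the lowest. The log2 fold change of DD against WT was -0.31 (95% interval -0.84 to 0.23). The non-coding gene Gm11175 (chromosome 8, 71151811 to 71152729) lies inside Jund on the opposite strand, and its counts were between 61.5% and 63% of the Jund counts in all 6 libraries. Its profile therefore differed from that of Jund by a root mean square of 0.0111 on the log2 scale. The cause of this fixed ratio was not tested, and reads of the 2 genes are not treated as independent measurements.

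Atf3 (ENSMUSG00000026628.14, chromosome 1, 190902493 to 190950236, minus strand) encodes a stress-induced factor that pairs with JUN proteins and often represses. It had 30.1 and 19.9 CPM in WT, 12.7 and 15.4 in DD and 21.6 and 19 with rDKK3. Both DD libraries lay below the other 4, and the WT and DD + rDKK3 libraries overlapped. The log2 fold change of DD against WT was -0.83 with a 95% interval of -1.37 to -0.28 (edgeR adjusted p = 0.586). It ranged from -1.10 to -0.48 when single libraries were left out, and only the edgeR fit without the low-count filter called it (adjusted p = 0.0301).

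**Figure D2:**
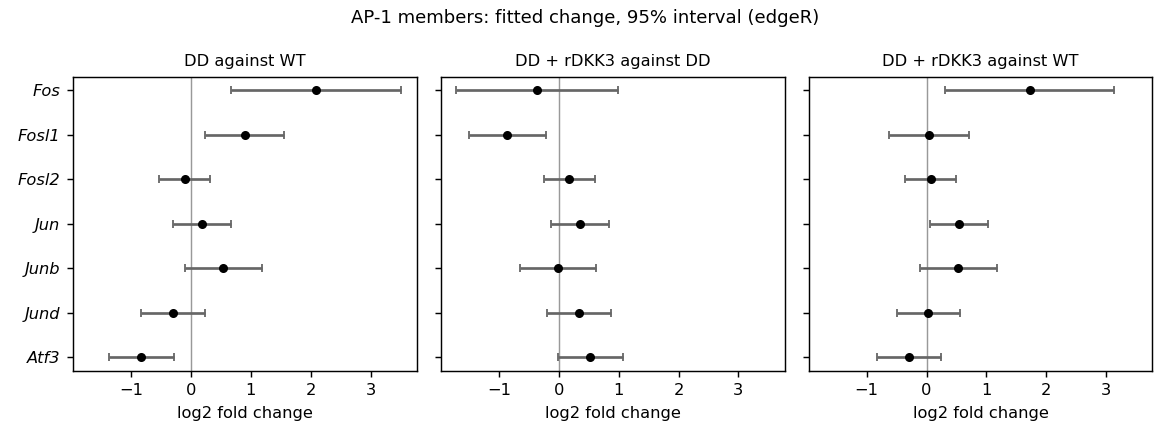
Log2 fold changes of the 7 members tested, with 95% intervals from edgeR's quasi-likelihood fit, in the 3 comparisons. For DD against WT the intervals of Fos (0.66 to 3.51), Fosl1 (0.24 to 1.56) and Atf3 (-1.37 to -0.28) lie on 1 side of 0 before adjustment for multiple testing, and none of the 7 passed after it.

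The response to added DKK3 was compared next, in DD + rDKK3 against DD acini. Fosl1 was 0.86 lower on the log2 scale, Atf3 was 0.53 higher and Fos was 0.36 lower, with Jun, Jund and Fosl2 between 0.18 and 0.36 higher. None of the 7 members passed edgeR's quasi-likelihood test at an adjusted p under 0.05, and neither did any other gene (0%). DESeq2, limma-voom and the edgeR fit without the filter also called 0 members, against 0.0339%, 0% and 0.275% of all genes. DESeq2 gave Fosl1 no adjusted p in this comparison, so it could not have called that gene. At an unadjusted p under 0.05, 1 of 7 members stood out (Fosl1, lower), against 1.98% of all genes in either direction, 0.597% higher and 1.38% lower. The groups did not overlap for 5 of 7 members, against 29.5% of all genes. Of these, 4 were higher (Fosl2, Jun, Jund and Atf3), against 15.1%, and 1 was lower (Fosl1), against 14.4%. The median log2 fold change was 0.18, beside -0.0028 over all genes. This comparison and that of DD against WT share the DD libraries, so their values are set side by side and are not separate evidence.

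For Fosl1 the log2 fold change of DD + rDKK3 against DD was -0.86 with a 95% interval of -1.50 to -0.21 (edgeR adjusted p = 1), beside 0.90 for DD against WT. It stayed between -1.07 and -0.70 when single libraries were left out. For Atf3 the values were 0.53 (95% interval -0.0082 to 1.07) beside -0.83. For Fos they were -0.36 (95% interval -1.71 to 0.99) beside 2.09, and the Fos libraries of DD and DD + rDKK3 overlapped. Within each number Fos was lower in the treated library, at 55.4 against 78.8 CPM in the number-1 and 97.9 against 118 CPM in the number-2 libraries. The Fos value moved between -0.84 and -0.024 when single libraries were left out, and the highest Fos level of each Dkk3-null group was in its number-2 library, where fibroblast markers were also highest. Their part in the result was not tested. Without both of those libraries, the Fos log2 fold change of DD + rDKK3 against DD was -0.50, from 1 library of each group. Jun was 0.36 higher (95% interval -0.13 to 0.84), and Junb differed by -0.0087 (95% interval -0.65 to 0.63).

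The third comparison asked how treated Dkk3-null acini differed from WT acini. Fos was 1.72 ± 0.607 (SE) and Jun 0.54 ± 0.211 higher on the log2 scale, Junb was 0.53 higher, and Fosl1 was 0.039 higher with a 95% interval of -0.63 to 0.71. None of the 7 members passed edgeR's quasi-likelihood test at an adjusted p under 0.05, a threshold that 0.0475% of all genes passed. DESeq2 and limma-voom called 0 of 7, against 0.414% and 0.0204% of all genes, and the edgeR fit without the filter called 1 of 8 (Fos), against 2.97%. At least Atf3 had no adjusted p in DESeq2 here and could not have been called by it. At an unadjusted p under 0.05, 2 of 7 stood out (Fos and Jun, both higher), against 15.3% of all genes in either direction, 7.34% higher and 8% lower. The groups did not overlap for 3 of 7 (Fos, Jun and Junb, all higher), against 55% of all genes, 27.9% higher and 27.1% lower. The median log2 fold change was 0.075, beside 0.017 over all genes. The adjusted p of Fos and of Jun was 0.321 in edgeR's quasi-likelihood test. The Fos value was 1.04 without WT 1 and 3.26 without WT 2, and the Jun value was 0.29 without WT 1 and 0.90 without WT 2. Atf3 was 0.30 lower, with a 95% interval of -0.83 to 0.24, and its value was 0.049 without WT 1.

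Levels can be set against each other only per length, so CPM was divided by the summed exon length of each gene. The lengths joined all exons annotated in GENCODE M39, whereas the counts were made on the basic M32 annotation. Shares and ratios between genes depend on that choice of length. On that scale Jund was the most abundant member in every library, with 49.9% to 78.3% of the summed AP-1 level, and Junb followed with 9.35% to 21.8%. Fos took 1.01% and 5.64% of the summed level in WT, 10.5% and 15.5% in DD and 6.81% and 10.7% with rDKK3. The Fos share was therefore lower in both WT libraries than in the other 4, and the DD and DD + rDKK3 shares overlapped, although within each number the treated library had the lower share. The shares are given as a description, with no test.

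The ratio of Fos to Fosl2 per length was 0.612 and 3.89 in WT, 7.76 and 10.7 in DD and 4.96 and 7.62 with rDKK3. Fosl2 exceeded Fos in WT 1 alone, and both DD libraries had the highest ratios, DD 1 only just above DD + rDKK3 2. Within each number the ratio was lower in the treated library. The ratio of summed FOS to summed JUN family level per length was 0.0382 and 0.0868 in WT, 0.155 and 0.232 in DD and 0.0994 and 0.151 with rDKK3. JUN transcripts thus exceeded FOS transcripts in all 6 libraries.

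**Figure D3:**
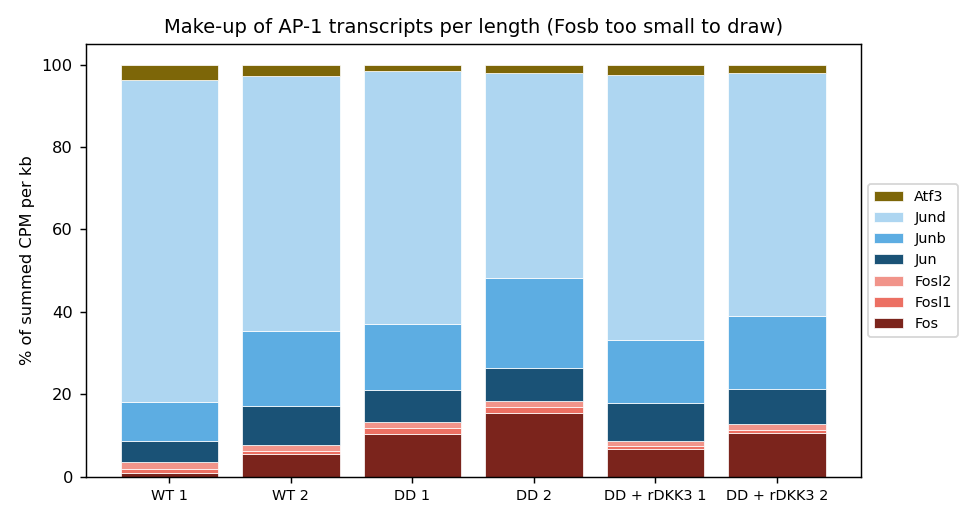
Share of each AP-1 gene in the summed CPM per kb of the 8 members, with a stacked bar per library. Jund fills 49.9% to 78.3% of each bar, and the Fos share runs from 1.01% in WT 1 to 15.5% in DD 2.

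The genes whose profiles over the 6 libraries lay closest to each member were found by the root mean square (RMS) difference of centred log2 CPM among 11864 genes. No gene followed Fos closely: the nearest were Gm49759, Gcnt4 and Zfp36, at an RMS difference of 0.48 to 0.49, against a root mean square of 1.29 for Fos itself. Zfp36 encodes tristetraprolin, which speeds the decay of AU-rich mRNAs, Fos mRNA among them. Fosl1 was nearest to Epha2 (0.112), which encodes an ephrin receptor, Fhdc1 and Cdc42ep5. Jun was nearest to Mapk8ip3, which encodes a JNK scaffold, at 0.0265, followed by Specc1l and Fads6. Atf3 was nearest to Cuzd1 (0.0554), Rnase1 and Rasgrp4, of which Cuzd1 and Rnase1 are genes of acinar cells. Fosl2 was nearest to Efhd2, Skil and Chka, Junb to Notch4, Ncapg2 and Pkd2, and Jund to Gm11175, Dtx2 and Jak3. With 6 libraries such likeness is a description.

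Among 14 other bZIP partners of AP-1 proteins, 11 were tested, and edgeR, with or without the low-count filter, and DESeq2 called 0 in any comparison. In DD against WT 7 of 11 were higher, beside 7614 of all 14738 genes, with a median log2 fold change of 0.092. In that comparison 1 of 11 (Atf4) had an unadjusted p under 0.05, against 8.26% of all genes. Of the 11, 6 were higher in DD + rDKK3 than in DD and 5 than in WT, beside 7301 and 7601 of all genes. Atf4, a factor of the integrated stress response, had 260 and 326 CPM in WT, 213 and 217 in DD and 248 and 200 with rDKK3, a log2 fold change of -0.45 for DD against WT. Creb5 and Mafk, a CRE-binding factor and a small MAF protein, had log2 fold changes of -0.50 and 0.26. For DD + rDKK3 against DD those of Atf4, Creb5 and Mafk were 0.061, -0.21 and -0.11, and against WT they were -0.39, -0.71 and 0.15.

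Of 27 regulators of AP-1 genes and proteins, 26 were tested, and edgeR with the low-count filter and DESeq2 called 0 in any comparison. The edgeR fit without the filter called 1 of 27 (Zfp36, higher) both in DD against WT and in DD + rDKK3 against WT, against 1.99% and 2.97% of all genes. In DD against WT 18 of 26 were higher, beside 7614 of all 14738 genes, with a median log2 fold change of 0.091. In that comparison 0 of 26 had an unadjusted p under 0.05, against 8.26% of all genes. In both comparisons of DD + rDKK3, 20 of 26 were higher, beside 7301 (against DD) and 7601 (against WT) of all genes. Against WT, 8 of 26 had an unadjusted p under 0.05, 5 of them higher and 3 lower, against 15.3% of all genes. Zfp36 had 15.9 and 58.7 CPM in WT, 74 and 88.3 in DD and 82.3 and 94.1 with rDKK3, so that both WT libraries lay below the rest and WT 1 lay lowest, as for Fos. Its log2 fold changes were 1.11 ± 0.485 (SE) for DD against WT, 0.12 for DD + rDKK3 against DD and 1.23 for DD + rDKK3 against WT. Srf encodes the serum response factor that drives Fos transcription, and Fbxw7 a ubiquitin-ligase subunit that marks c-JUN for decay. Their log2 fold changes for DD against WT were 0.33 and 0.43, those for DD + rDKK3 against DD were 0.077 and 0.15, and those for DD + rDKK3 against WT were 0.41 and 0.58.

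Of 16 other immediate early genes, 15 were tested, and edgeR with the low-count filter called 0 in any comparison, while DESeq2 called Ccn2 in DD against WT. The edgeR fit without the filter called 5 of 16 in DD against WT (Ccn2, Dusp1, Egr1, Egr2 and Klf4) and 4 of 16 in DD + rDKK3 against WT (the same genes without Ccn2), all higher, against 1.99% and 2.97% of all genes. In DD against WT 9 of 15 were higher, beside 7614 of all 14738 genes, and the median was 0.16. At an unadjusted p under 0.05, 5 of 15 stood out as higher, against 4.27% of all genes. The list was chosen with earlier results of these data known. Egr1, a zinc-finger factor induced by ERK through SRF, had 28.3 and 58 CPM in WT, 78.3 and 135 in DD and 96.8 and 153 with rDKK3. Dusp1, a phosphatase that ends MAP kinase signalling and is also a glucocorticoid target, had 34.6 and 50 CPM in WT, 64.1 and 81.4 in DD and 58.9 and 77.4 with rDKK3. Ccn2, a matricellular protein, had 31.9 and 36.9 CPM in WT, 63.9 and 52.6 in DD and 44.2 and 41.3 with rDKK3. For all 3 genes the WT libraries lay below the other 4. The log2 fold changes of DD against WT were 1.30 for Egr1, 0.78 for Dusp1 and 0.76 for Ccn2, those of DD + rDKK3 against DD were 0.23, -0.093 and -0.45, and those against WT were 1.53, 0.69 and 0.31. Egr2 and Klf4, zinc-finger factors, had log2 fold changes of 2.72 and 1.16 for DD against WT, -0.26 each for DD + rDKK3 against DD, and 2.46 and 0.90 for DD + rDKK3 against WT. Both were highest in DD 2 and DD + rDKK3 2, Egr2 at 12.3 and 8.54 against 0.912 to 2.90 CPM elsewhere. Without DD 2 the count of higher genes was 8 of 15 in DD against WT, with a median of 0.0014.

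**Figure D4:**
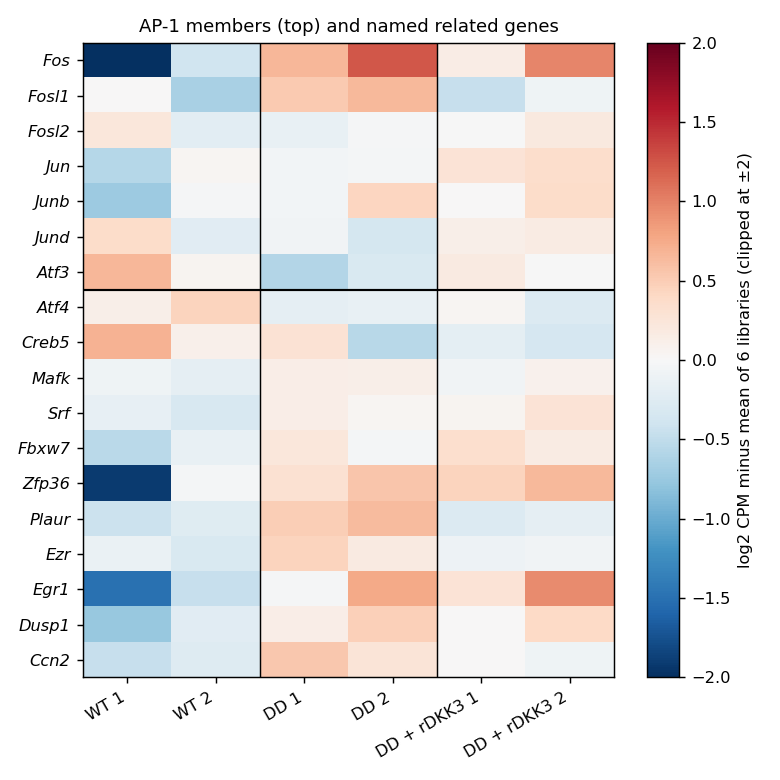
Log2 CPM of the 7 members tested and of 11 related genes in each library, as the difference from the mean of the 6 libraries, with the colour scale clipped at ±2. Fos, Zfp36 and Egr1 are lowest in WT 1, and Fosl1 and Plaur are higher in both DD libraries than in the other 4.

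Of 20 genes described as AP-1 targets, 18 were tested, and 0 were called by edgeR with the low-count filter in any comparison, while DESeq2 called Plaur both in DD against WT and in DD + rDKK3 against DD. The edgeR fit without the filter called 3 of 20 in DD against WT (Mmp3, Plaur and Timp1, higher), 3 in DD + rDKK3 against DD (Hmox1, Plaur and Sprr1a, lower) and 2 in DD + rDKK3 against WT (Mmp3 and Timp1, higher), against 1.99%, 0.275% and 2.97% of all genes. All 18 were higher in DD than in WT (median log2 fold change 0.44), beside 7614 of all 14738 genes. In DD + rDKK3 against DD, 17 of 18 were lower (median -0.46), beside 7437 of all genes. This list, like the members and the other lists, was chosen with earlier results of these data known. Its counts are therefore a description and not separate support. In DD + rDKK3 against WT, 10 of 18 were higher, with a median of 0.028, beside 7601 of all genes. At an unadjusted p under 0.05 edgeR with the filter had 2 (higher), 4 (lower) and 1 (lower) of the 18 in the 3 comparisons in turn, against 8.26%, 1.98% and 15.3% of all genes. These counts rested in part on DD 2, which both of the first comparisons share: without it 12 of 18 were higher in DD than in WT (median 0.20) and 10 of 18 were lower in DD + rDKK3 than in DD (median -0.11). The genes that changed sign without DD 2 in DD against WT were Mmp3, Mmp9, Timp1, Plau, Il6 and Spp1, and they are named here after their values were seen. Timp1, an inhibitor of matrix metalloproteinases, had 304 CPM in DD 2 and 192 in DD + rDKK3 2 against 20.5 to 108 CPM elsewhere. Mmp3, a matrix metalloproteinase, had 15.6 and 8.33 CPM in those 2 libraries against 1.89 to 3.11 CPM elsewhere, and the fibroblast markers were highest in the same 2 libraries. The part of those cells in the result was not tested. Hmox1, a haem-degrading enzyme of the oxidative stress response, and Sprr1a, a small proline-rich protein, had log2 fold changes of -0.89 and -0.93 for DD + rDKK3 against DD, beside 0.35 and 0.31 for DD against WT and -0.54 and -0.62 for DD + rDKK3 against WT.

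Plaur, which encodes the urokinase receptor, had 22.6 and 25.8 CPM in WT, 42.7 and 47.6 in DD and 25.3 and 26.9 with rDKK3. Both DD libraries lay above the other 4, as for Fosl1, and WT and DD + rDKK3 overlapped. Its log2 fold changes were 0.90 ± 0.151 (SE) for DD against WT (edgeR adjusted p = 0.300), -0.79 ± 0.149 for DD + rDKK3 against DD (edgeR adjusted p = 1) and 0.11 for DD + rDKK3 against WT. Without DD 2 the first 2 were 0.82 and -0.71. Plaur was named for its small p in DD against WT, and the first 2 comparisons share the DD libraries. Its rise and fall are therefore not separate evidence. Ezr, which links actin to the membrane, had log2 fold changes of 0.54 for DD against WT, -0.40 for DD + rDKK3 against DD and 0.14 for DD + rDKK3 against WT.

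**Figure D5:**
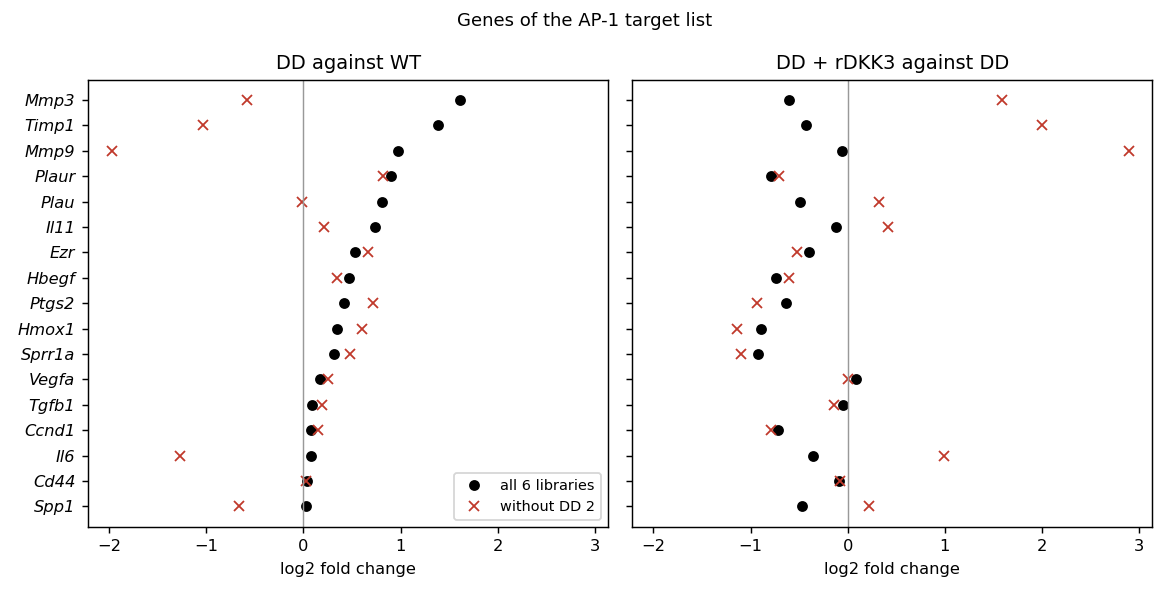
Log2 fold changes of 17 of the AP-1 target genes tested in DD against WT (left) and DD + rDKK3 against DD (right), from all 6 libraries (black points) and without DD 2 (red crosses). With all libraries 17 of 17 lie above 0 on the left and 16 of 17 below 0 on the right, and without DD 2 these become 11 and 9.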

How the data were processed

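RNA was sequenced from 6 acinar cultures, 2 per group, with a directional kit. Per the labels and the study's methods, the authors aligned paired-end reads with STAR 2.7.9a to GRCm39 with the basic GENCODE M32 annotation and counted them by strand over exons in union mode, and they tested the counts with DESeq2 1.38.0. The deposited table holds raw counts per gene, not normalised. Reads in shared exonic sequence of overlapping same-strand genes are dropped by such counting.

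From these counts, 92 spike-in features with 0 counts were left out of 57045, leaving 56953 genes. The low-count filter of edgeR 4.0.16 (minimum count 10, minimum total 15) kept 14738 genes in R 4.3.3. After TMM scaling, 1 quasi-likelihood fit in edgeR took all 6 libraries in 3 groups. It had 3 residual and 4.634 prior degrees of freedom, and the common BCV (biological coefficient of variation) was 0.2148. P-values are two-sided, Benjamini-Hochberg adjusted over all genes tested, with calls made at adjusted p under 0.05. The SE is the absolute log2 fold change divided by the square root of the F statistic. CPM used TMM-scaled totals and log2 CPM a prior count of 2. Poisson intervals (95%) and the 3-count limit cover counting error only. Fosb, below the filter, was fitted without it (26506 genes, infinite prior degrees of freedom). Exon lengths came from GENCODE M39. Totals of 12018473 to 19750401 counts set the depth.

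The members and lists were chosen with earlier results of these data known. Genes named are the 8 members, in each of 4 related lists the 3 genes with the smallest p in DD against WT and any gene called, and the 3 nearest profiles of each member among tested genes with an average log2 CPM of at least 1. Others are described as named after their values were seen. The values of 1 list gene are not reported here, while the counts and medians of its list include it. Alternatives were library size alone, RLE size factors, no filter, DESeq2 1.42.0, limma-voom (limma 3.58.1), the replicate number as a block, and leaving out libraries. The filtered fits of edgeR, DESeq2 and limma-voom were tested on data simulated with the same BCV for every gene and no outlying library. The fit without the low-count filter was not tested in this way. The labels tie no replicate number to an animal, so the numbers were used as names.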

Additional observations from a re-analysis of the deposited data

How the results depend on the processing

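Members called were 0 of 7 in each comparison under every alternative except the fit without the low-count filter, which called 2 (Fos and Atf3) in DD against WT and 1 (Fos) in DD + rDKK3 against WT, with the Fos log2 fold change at 2.13 and 1.76. In DESeq2 at least Fosl1 in DD + rDKK3 against DD and Atf3 in DD + rDKK3 against WT had no adjusted p, so no call was possible there. Without the filter 528, 73 and 788 of all genes were called (for DD against WT first, then for DD + rDKK3 against DD, then for the treated group against WT), against 6, 0 and 7 with it. DESeq2 called 77, 5 and 61, limma-voom 3 in the last comparison, and the fit without both Dkk3-null libraries numbered 2 called 14 in the first, with 1 library left in each Dkk3-null group, so that the spread came from the WT libraries alone. Leaving out single libraries, where the lone library of a group was assumed to vary like the other groups, gave 2 to 6 genes in the first and 2 to 9 in the last comparison. The members' median moved with library size alone to 0.37 in DD against WT and 0.26 in DD + rDKK3 against WT, where the median of all genes shifted by 0.22 and 0.18. Leaving out single libraries, it ranged from 0.15 to 0.54, from 0.067 to 0.26 and from -0.13 to 0.33 in the 3 comparisons. Signs of uncalled differences turned in 17 of 312 member values. In DD against WT these were Jun, Fosl2 and Jund without WT 1, whose values ranged over single left-out libraries from -0.073 to 0.54, from -0.31 to 0.15 and from -0.57 to 0.040, and Fosl2 at 0.12 with library size alone. In DD + rDKK3 against DD they were Junb without DD 2 or DD + rDKK3 1 (range -0.25 to 0.25), at 0.058 without both number-2 libraries and at 1.63e-06 with the replicate block, and Fosb without DD + rDKK3 1 (range -0.14 to 0.41). In DD + rDKK3 against WT they were Atf3 without WT 1 (range -0.57 to 0.049), Jund without WT 2 (-0.23 to 0.38), and Fosl2 (-0.13 to 0.33) and Fosl1 (-0.26 to 0.41) without WT 2 or DD + rDKK3 2, with Fosl2 at -0.025 and Fosl1 at -0.16 without both number-2 libraries. AP-1 targets lower in DD + rDKK3 than in DD numbered 10 without DD 2 and 11 without both number-2 libraries, against 17, a count added after the data were seen, and limma-voom gave 14, with 15 of 18 higher in DD than in WT. With the replicate block, 7, 0 and 5 genes were called, 0 of them members, and Fos was 2.35 higher in DD than in WT and differed by -0.41 (95% interval -1.24 to 0.42) between DD + rDKK3 and DD. Deviations of same-numbered libraries correlated at -0.387 (WT and DD), -0.247 (WT and DD + rDKK3) and 0.65 (DD and DD + rDKK3). DD and DD + rDKK3 cultures of the same number may therefore be related, which the labels do not state and 2 pairs cannot show, and the reported fits took the numbers as names. The causes of these shifts were not tested, and with 2 libraries a group only large differences could be called.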
